A study of Bos taurus with 34 samples.

Results

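A set of 10 genes of macrophages and other myeloid cells was followed through the lining of the oviduct and uterus of 5 heifers. They were ITGAM, CSF1R, CD14, CD68, CD163, LYZ, AIF1, TYROBP, FCER1G and MARCO, 10 of the 21530 genes that could be matched to the 38568 features of the count table. Each gene was represented by the feature whose RefSeq transcript maps to its symbol, and by the one with the highest mean count where it had more than 1, which held for AIF1 alone. The features were NM_001039957.1 for ITGAM, NM_001075403.2 for CSF1R, XM_005209429.4 for CD14, NM_001045902.1 for CD68, NM_001163413.1 for CD163, NM_001078159.1 for LYZ, XM_024983376.1 for AIF1, XM_005218906.4 for TYROBP, XM_015461229.2 for FCER1G and XM_024981046.1 for MARCO.

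Macrophages depend for survival on signals through CSF1R, the receptor of the growth factors CSF1 and IL34, and they sense and take up microbes and dying cells through receptors such as CD14, CD163 and MARCO. In the uterine lining they are known for clearing debris and sperm and for answering bacteria, and in the oviduct leukocytes lie mostly in and under the epithelium. ITGAM, the alpha chain of the integrin CD11b/CD18, is shared by monocytes, macrophages, neutrophils and natural killer cells, so the 10 genes do not mark a single cell type.

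All animals were nulliparous Holstein heifers whose cycles were synchronised by 5-day CIDR-Synch, a progesterone-insert protocol, and which were killed on day 2 after ovulation. Bulk RNA came from the ampulla, the wide oviduct segment where fertilisation takes place and whose lining is the endosalpinx, and from the endometrium of the upper uterine horn, the mid uterine horn and the uterine body. The ampulla and each horn level were taken on the ovulatory (ipsilateral) side and on the opposite (contralateral) side, and the body carries no side in the labels. The 7 groups held 5 heifers each, except the ipsilateral upper horn with 4, which gives 10 ampulla and 24 endometrium libraries.

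Libraries held 11619486 to 30412782 counts and 15773 to 26676 features with a count. Levels below are CPM, the counts divided by the library total and put on a common scale, corrected by TMM factors. Thus 1 count is worth a different CPM in each library. Values pooled over the ampulla or over the endometrium were taken from library totals without TMM factors. The smallest library, the contralateral upper horn of heifer 11033, had 16049 features with a count, and the contralateral ampulla of heifer 11070 had 15773. The contralateral mid horn of heifer 10882 carried the oviduct keratin KRT5 at 453 CPM. These 3 libraries stand apart, and calls that change without them are given both ways. In bulk tissue, fewer cells of a type and less RNA per cell cannot be told apart.

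The 10 genes were counted to very different depths. Summed over the ampulla and then over the endometrium libraries, CSF1R had 4139 and 71649 counts, CD14 856 and 26376, LYZ 2449 and 12827, and ITGAM 94 and 7065. FCER1G had 29 and 428 counts and AIF1 64 and 213. The other 4 genes were close to absent from the table: CD163 had 0 and 31 counts, MARCO 0 and 15, TYROBP 0 and 6, and CD68 0 and 2. How reads shared by several transcripts were counted is not given in the sources used here. TYROBP has 2 annotated transcripts and CD163 has 3, while CD68 and MARCO have 1. Of the other 6 genes, ITGAM and AIF1 have 3, CD14 and FCER1G have 2, and CSF1R and LYZ have 1. The part of shared reads in the counts was not tested. Levels were therefore compared between libraries for 1 gene at a time, and the low counts are not read as low expression. The leukocyte gene PTPRC (CD45), which all white blood cells carry, had 3 counts in all 34 libraries, and the macrophage mannose receptor MRC1 had 5, so these defining markers could not be used to check the label. The filter on low counts kept 6 of the 10 genes, namely ITGAM, CSF1R, CD14, LYZ, AIF1 and FCER1G.

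**Figure D1:**
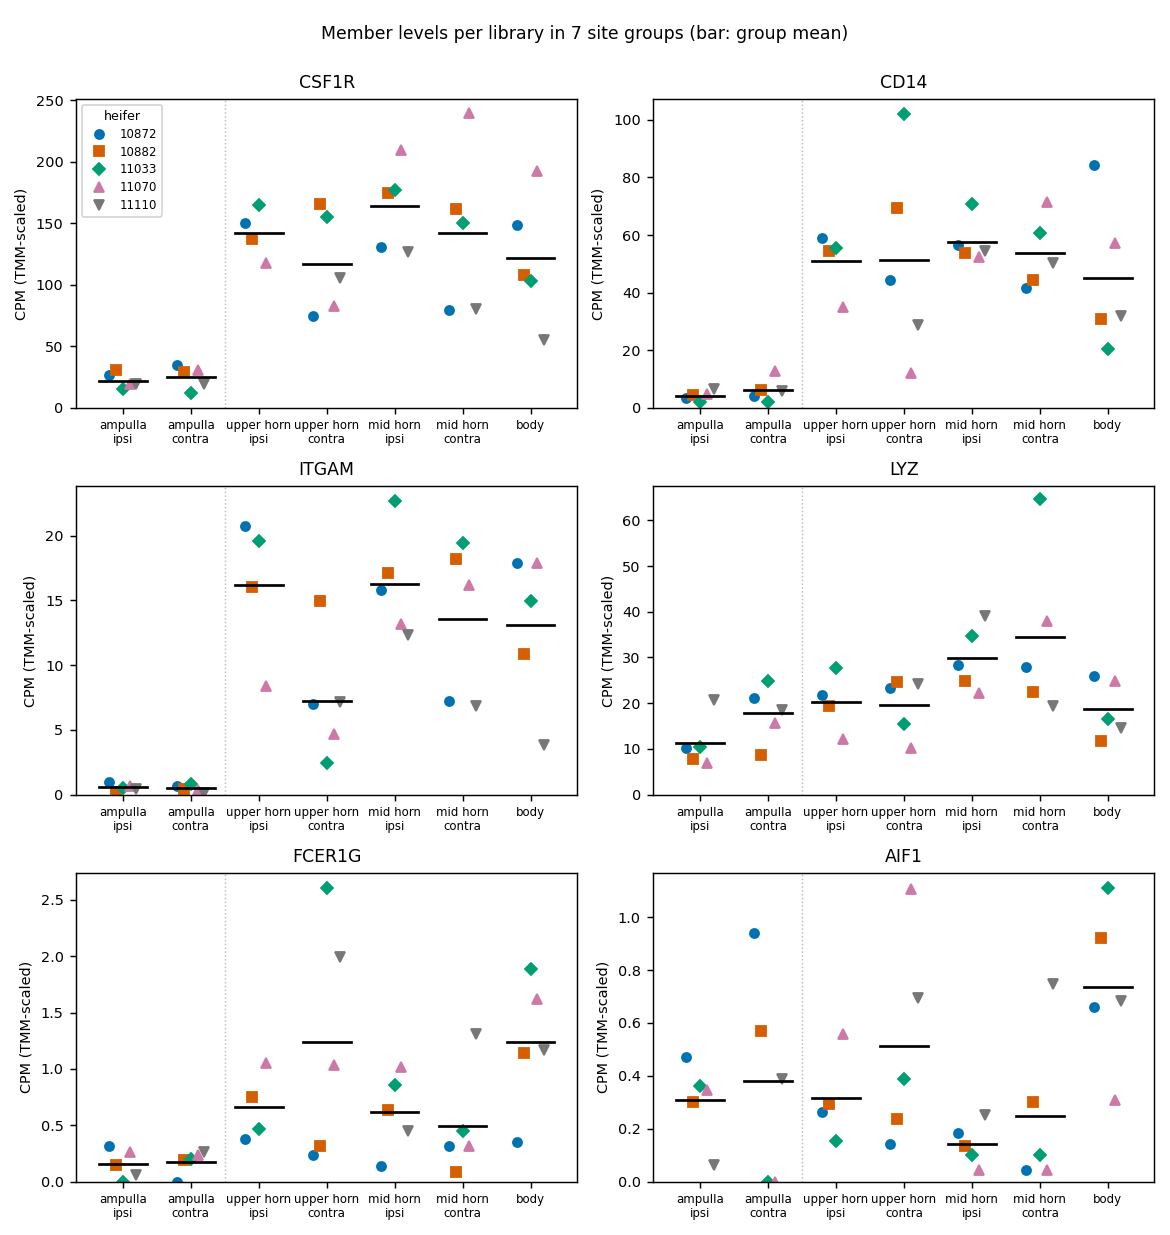
Level in CPM (linear axes) of the 6 tested macrophage and myeloid genes in each library, by site from the ampulla to the uterine body; points are libraries with a symbol for each heifer, and bars are group means. ITGAM, CSF1R and CD14 lie low in the ampulla groups and higher in the endometrial groups, while LYZ and AIF1 overlap between the ampulla and the endometrium. Among the endometrial groups ITGAM has its lowest mean in the contralateral upper horn (7.22 CPM) and its highest in the ipsilateral mid horn (16.2 CPM).

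The first comparison set the oviduct lining against the uterine lining as a whole. ITGAM, CD14, CSF1R, FCER1G and LYZ were all lower in the ampulla, by between 24.1-fold for ITGAM and 1.68-fold for LYZ, each in 5 of 5 heifers, and AIF1 did not pass the test. Thus 5 of the 6 tested genes were called lower and 0 higher, while 35.6% of the 17241 transcripts tested were called lower, 29.4% higher and 64.9% in either direction. The median log2 fold change was -2.34 over the 6 genes and -0.18 over all transcripts tested. The count leaves out the 4 genes that did not pass the filter. FCER1G and ITGAM had 29 and 94 counts in the ampulla, so their passing the filter rests largely on their endometrial counts. The count of 5 is therefore a description.

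Among the receptors, ITGAM, which binds complement-coated particles and helps phagocytes adhere, ran from 0.129 to 0.998 CPM with a median of 0.480 in the 10 ampulla libraries, and from 2.41 to 22.7 CPM with a median of 14.9 in the 24 endometrium libraries. No ampulla library reached the lowest endometrium library. Averaged by heifer it stood at 0.520 ± 0.232 CPM in the ampulla, set against 12.9 ± 3.53 CPM in the endometrium (SD, n = 5 each), a log2 fold change of -4.59 ± 0.33 (SE; edgeR adjusted p = 1.48e-13). The 10 ampulla libraries held 2 to 19 ITGAM counts each.

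CSF1R, the growth factor receptor, ran from 11.9 to 34.5 CPM with a median of 23.0 in the ampulla libraries, and from 54.8 to 239.6 CPM with a median of 142.7 in the endometrium libraries. These ranges did not overlap either. The means over heifers were 23.6 ± 7.12 CPM in the ampulla, set against 133.4 ± 31.2 CPM in the endometrium (SD, n = 5 each), which is 5.55-fold lower in the ampulla, with a log2 fold change of -2.47 ± 0.20 (SE; edgeR adjusted p = 1.69e-12).

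CD14, the co-receptor that hands bacterial lipopolysaccharide to TLR4, ran from 2.10 to 12.8 CPM with a median of 4.51 in the ampulla libraries, and from 11.98 to 102.2 CPM with a median of 54.0 in the endometrium libraries. A single ampulla library, the contralateral one of heifer 11070, lay above the lowest endometrium library. The means were 5.15 ± 2.51 CPM in the ampulla, set against 49.8 ± 9.04 CPM in the endometrium (SD, n = 5 each), with a log2 fold change of -3.32 ± 0.32 (SE; edgeR adjusted p = 1.19e-10). The highest CD14 level of the ampulla (12.8 CPM) and that of the endometrium (102.2 CPM) were found in the 2 libraries with the fewest features. Across the 24 endometrium libraries log2 CD14 and the number of features with a count had a Pearson r of -0.60, given as a description since the libraries share 5 heifers. Without the 3 libraries that stand apart the log2 fold change of CD14 was -3.53.

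LYZ codes for lysozyme, which splits bacterial cell walls and is made by gland and surface epithelia as well as by phagocytes. Cattle carry a family of similar lysozyme genes, so its counts are uncertain where reads are shared. It ran from 6.92 to 24.8 CPM in the ampulla libraries and from 10.1 to 64.6 CPM in the endometrium libraries, ranges that overlap widely. The means were 14.5 ± 4.66 CPM in the ampulla, set against 23.7 ± 3.83 CPM in the endometrium (SD, n = 5 each), with a log2 fold change of -0.75 ± 0.20 (SE; edgeR adjusted p = 0.00158).

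The adapter FCER1G, the common gamma chain that passes on signals of Fc receptors in myeloid, mast and natural killer cells, ran from 0 to 0.315 CPM in the ampulla libraries and from 0.0864 to 2.61 CPM in the endometrium libraries. The ranges overlapped, and 2 ampulla libraries held no count. The means were 0.167 ± 0.0540 CPM in the ampulla, set against 0.958 ± 0.462 CPM in the endometrium (SD, n = 5 each), 4.59-fold lower in the ampulla (log2 fold change -2.20 ± 0.46 SE, edgeR adjusted p = 0.000116). Mast cell genes moved with it, and the part of that cell type in the FCER1G difference was not tested: the 5 listed mast cell and basophil genes with a feature summed to 0.150 to 0.852 CPM in the ampulla libraries and 81.8 to 382.9 CPM in the endometrium libraries, where GATA2 alone, a transcription factor that is not confined to mast cells, gave 48.6 to 325.0 CPM. The other 4 genes summed to 0 to 0.590 CPM in the ampulla libraries and 4.34 to 65.2 CPM in the endometrium libraries. MS4A2 and FCER1A, chains of the IgE receptor, had 0 counts in the ampulla and 1 and 6 counts in the endometrium, too few to test. The adapter TYROBP (DAP12), which serves other activating receptors of myeloid cells, had 5 of its 6 counts in the ipsilateral mid horn library of heifer 11070, and 0 in the ampulla. At 0.0121 CPM the pooled endometrium lay below the 0.0150 CPM that 3 counts over the pooled ampulla are worth, so no fold is given for TYROBP.

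AIF1, also known as IBA1, bundles actin in macrophages and is widely used to stain them. Its log2 fold change was -0.14 ± 0.50 (SE; edgeR adjusted p = 0.818), with a 95% interval from -1.16 to 0.87. It had 0 to 18 counts in each ampulla library and 1 to 30 in each endometrium library. The annotation of assembly ARS-UCD2.0 places AIF1 so that it overlaps NCR3, a natural killer cell receptor gene, and a second AIF1 feature held 14 counts in the ampulla and 89 in the endometrium. With the features of each gene summed, the AIF1 value was -0.44.

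The scavenger receptors CD163, which takes up haemoglobin bound to haptoglobin, and MARCO, which binds bacteria and particles, had no count in 10 ampulla libraries that together held 200027520 counts. CD163 had 1 to 4 counts in each of 14 endometrium libraries, 0.0627 CPM over the pooled endometrium with an exact 95% Poisson interval from 0.0426 to 0.0890 CPM. Against a floor of 3 counts over the pooled ampulla, CD163 was 2.84-fold higher in the endometrium at the lower end of that interval. At the pooled value it was 4.18-fold higher. Both folds are without TMM factors, whose effect on them is not included. On the same scale MARCO in the endometrium stood at 1.13 times the floor at the lower end of its interval and 2.02 times at its pooled value. That is too close to the floor to call MARCO higher in the endometrium. In addition, 13 of its 15 counts came from 3 libraries and 6 of them from the contralateral upper horn of heifer 11033. CD68, a lysosomal glycoprotein of macrophages, had 2 counts in the uterine body library of heifer 11070 and none elsewhere. Intervals and floors cover counting error only.

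**Figure D2:**
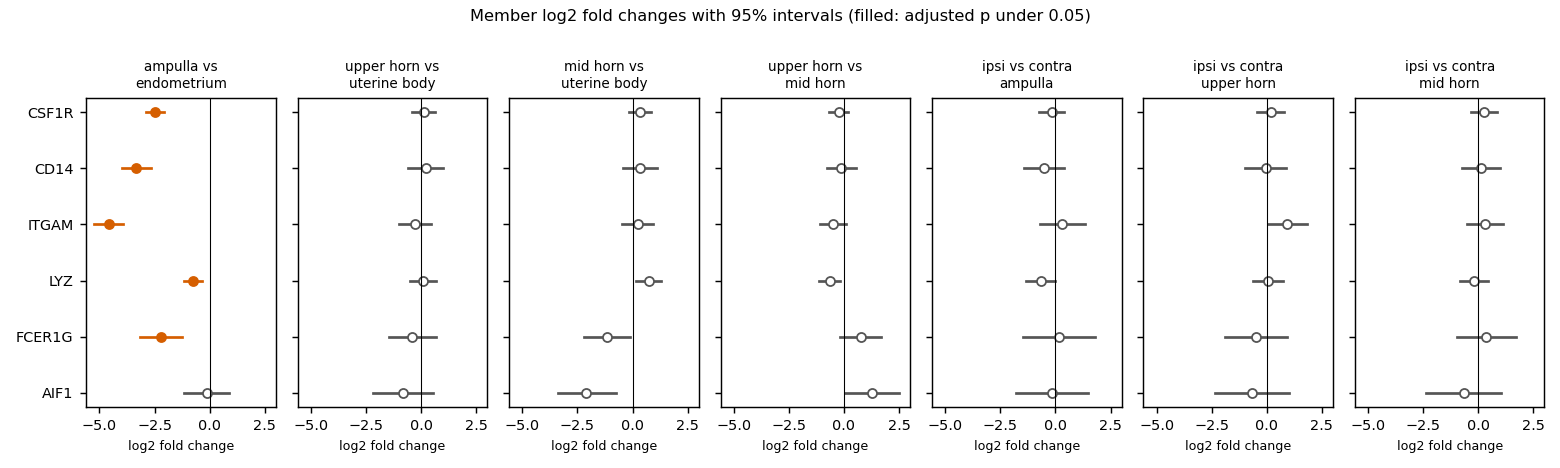
Log2 fold change (edgeR, points filled where the adjusted p was under 0.05, with 95% intervals as lines) of the 6 tested genes in 7 comparisons. In the ampulla against the endometrium the intervals of ITGAM, CD14, CSF1R, FCER1G and LYZ lie below 0, and in the other comparisons most intervals include 0.

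To set the genes side by side, the counts of each were taken per 100 CSF1R counts of the same library, a ratio that is comparable between libraries though not between genes. ITGAM stood at 2.55 ± 1.52 per 100 CSF1R counts in the ampulla and 9.62 ± 1.98 in the endometrium (SD over heifers, n = 5 each), lower in 5 of 5 heifers. LYZ stood at 72.3 ± 46.0 in the ampulla and 18.9 ± 5.90 in the endometrium, higher in the ampulla in 5 of 5 heifers. For both genes a two-sided exact sign-flip permutation test over 5 heifers gave p = 0.0625, the smallest it can give with 5 heifers, and 0.125 after Benjamini-Hochberg adjustment over the 4 ratios tested. The ratio of CD14 was 22.0 ± 9.76 in the ampulla and 38.6 ± 10.1 in the endometrium, lower in 4 of 5 heifers (exact permutation p = 0.125, adjusted 0.167). FCER1G stood at 0.779 ± 0.205 in the ampulla and 0.856 ± 0.543 in the endometrium (exact permutation p = 0.8125, adjusted 0.8125). The design cannot bring such a test under 0.05.

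**Figure D3:**
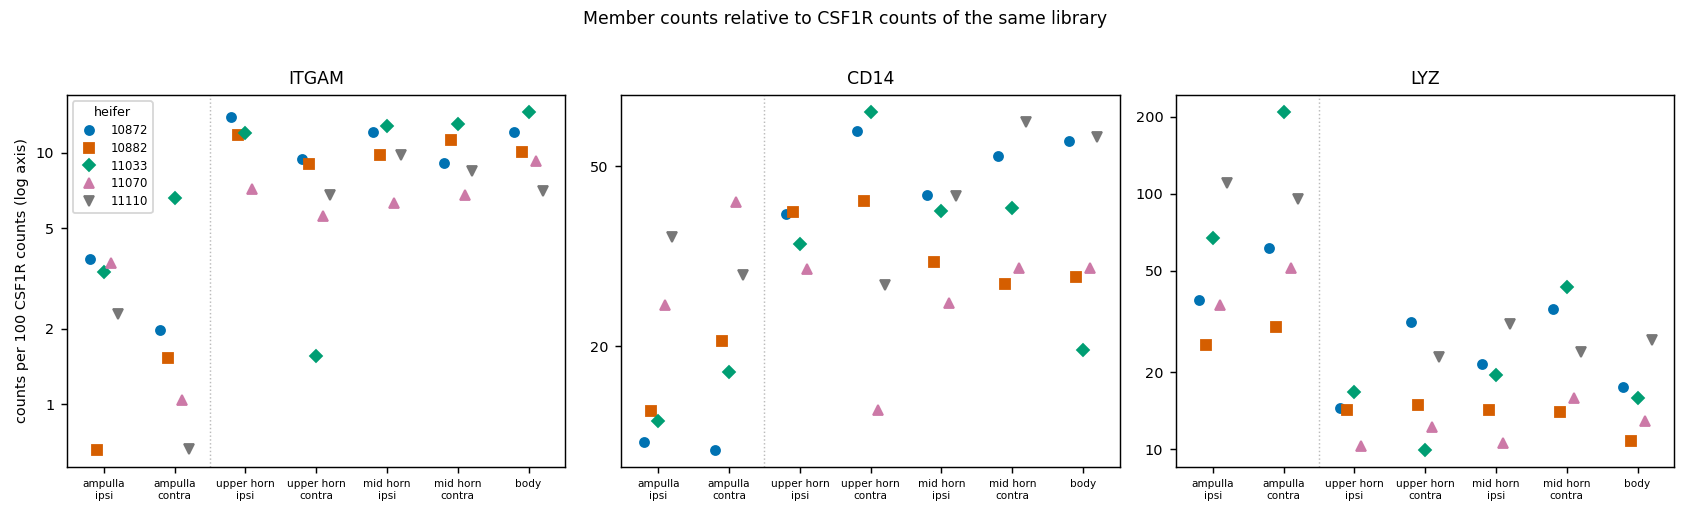
Counts of ITGAM, CD14 and LYZ per 100 CSF1R counts in each library (log axis), by site with the ampulla left of the endometrium and a symbol for each heifer. ITGAM lies mostly lower in the ampulla, LYZ lies mostly higher there, and the lowest endometrial ITGAM point is the contralateral upper horn of heifer 11033 (1.56).

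The levels of the receptors are given here site by site, as a description. CSF1R stood at 22.0 ± 6.12 CPM in the ipsilateral and 25.1 ± 9.21 CPM in the contralateral ampulla. It was highest in the ipsilateral mid horn (163.9 ± 35.02 CPM, SD, n = 5) and stood at 142.4 ± 19.96 CPM in the ipsilateral upper horn (n = 4). The next were 142.1 ± 66.6 CPM in the contralateral mid horn, 121.4 ± 51.8 CPM in the uterine body and 116.7 ± 41.6 CPM in the contralateral upper horn (n = 5 each). Every neighbouring pair among these 5 sites had overlapping ranges, and no range of theirs overlapped that of an ampulla site. CD14 followed with 57.5 ± 7.54 CPM in the ipsilateral mid horn at the top and 44.9 ± 26.0 CPM in the uterine body as the lowest endometrial site, and ITGAM ran from 16.2 ± 4.10 CPM in the ipsilateral mid horn to 7.22 ± 4.72 CPM in the contralateral upper horn. For ITGAM and CD14, too, the ranges of sites next to each other in the order of means overlapped except at the step to the ampulla. LYZ, FCER1G and AIF1 had overlapping ranges at every step, and AIF1 had its highest mean in the uterine body (0.736 CPM) and its lowest in the ipsilateral mid horn (0.143 CPM).

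Heifers differed as well. Heifer 11110, which has 4 endometrium libraries, had the lowest endometrial mean of ITGAM (6.85 CPM, against 13.04 to 15.7 in the other 4), of CSF1R (87.9 against 121.9 to 172.6) and of CD14 (37.7 against 47.2 to 61.7). These are descriptions of single animals and were not tested.

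Along the uterus, the comparison of the mid horn with the body called 4.45% of all transcripts by edgeR (3.92% lower and 0.528% higher) and 0 of the 6 tested genes. Unadjusted p-values under 0.05 were reached by 3 of them, AIF1, FCER1G and LYZ, and by 4833 of the 17241 transcripts tested. DESeq2 called AIF1 among 2714 transcripts. AIF1 stood at 0.183, 0.136, 0.101, 0.0441 and 0.250 CPM in the ipsilateral mid horn of heifers 10872, 10882, 11033, 11070 and 11110, and between 0.0444 and 0.747 CPM in the contralateral mid horn. In the uterine body of the same heifers it stood at 0.659, 0.921, 1.11, 0.309 and 0.681 CPM. The mean of each heifer's mid horn libraries was lower than its body in 5 of 5 heifers, and of the 10 mid horn libraries only the contralateral one of heifer 11110 lay within the range of the body libraries. The log2 fold change was -2.09 ± 0.65 (SE; edgeR adjusted p = 0.0534), on 1 to 16 counts in each mid horn library and 8 to 29 in each body library. This value lies at the threshold, and over the alternatives the adjusted p ran from 0.0120 to 0.367, with the highest value without heifer 11033. The body library of that heifer had the most AIF1 (1.11 CPM), the most features with a count (26676) and the largest share of counts in an 18S ribosomal transcript (23.5%), and the part of these in the AIF1 value was not tested.

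FCER1G shared the direction of AIF1, with a log2 fold change of -1.16 ± 0.52 in the mid horn against the body (SE; edgeR adjusted p = 0.137) and lower means in 5 of 5 heifers. LYZ had the opposite sign. It lay between 19.4 and 64.6 CPM with a median of 28.1 in the 10 mid horn libraries, against 26.0, 11.7, 16.5, 24.8 and 14.6 CPM in the body of the 5 heifers. It was higher in 5 of 5 heifers, and the ranges overlapped (log2 fold change 0.74 ± 0.28 SE, edgeR adjusted p = 0.0935). Body libraries held 23675 to 26676 features with a count and mid horn libraries 21002 to 24330. Over the 24 endometrium libraries the number of features had a Pearson r of 0.43 with log2 AIF1, -0.30 with LYZ and 0.08 with FCER1G. The part of the number of features in the values of these 3 genes was not tested. ITGAM, CSF1R and CD14 had log2 fold changes of 0.24, 0.35 and 0.33, and their 95% intervals ran from -0.48 to 0.95, from -0.16 to 0.86 and from -0.44 to 1.10.

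The upper horn was compared with the mid horn and with the body. Against the mid horn edgeR called 0.0174% of all transcripts (0.0058% lower and 0.0116% higher) and 0 of the 6 tested genes, with 2 of them at an unadjusted p under 0.05 and 0 called by DESeq2. That unadjusted threshold was passed by 1049 of the 17241 transcripts tested. LYZ had a log2 fold change of -0.65 ± 0.23 (SE; edgeR adjusted p = 0.787), lower in the upper horn in 5 of 5 heifers, and AIF1 one of 1.27 ± 0.61 (SE; edgeR adjusted p = 0.790), higher in 5 of 5 heifers. Against the body edgeR called 0.0232% of all transcripts and 0 of the 6 genes, with 0 at an unadjusted p under 0.05 and 0 by DESeq2. The 6 log2 fold changes lay between -0.82 for AIF1 and 0.21 for CD14. These comparisons share the upper horn, mid horn and body libraries, so their values are not independent.

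The side of ovulation was compared within the ampulla, the upper horn and the mid horn. Between ipsilateral and contralateral ampulla edgeR called 0.0174% of all transcripts and 0 of the 6 genes, with LYZ at an unadjusted p under 0.05 and 0 of the 6 genes called by DESeq2. That unadjusted threshold was passed by 1250 of the 17241 transcripts tested. LYZ stood at 10.1, 7.70, 10.3, 6.92 and 20.8 CPM in the ipsilateral ampulla and at 21.1, 8.74, 24.8, 15.7 and 18.5 CPM in the contralateral ampulla of heifers 10872, 10882, 11033, 11070 and 11110. It was lower on the ipsilateral side in 4 of 5 heifers, with overlapping ranges (log2 fold change -0.67 ± 0.32 SE, edgeR adjusted p = 0.683).

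Between the ipsilateral and the contralateral upper horn edgeR called 0.0058% of all transcripts and 0 of the 6 genes, with ITGAM at an unadjusted p under 0.05 and 0 of the 6 genes called by DESeq2. That unadjusted threshold was passed by 1188 of the 17241 transcripts tested. ITGAM stood at 20.8, 16.1, 19.6 and 8.41 CPM in the ipsilateral upper horn of heifers 10872, 10882, 11033 and 11070, against 6.97, 14.9, 2.41 and 4.64 CPM in the contralateral upper horn of the same heifers and 7.15 CPM in that of heifer 11110. It was higher on the ipsilateral side in 4 of 4 heifers, with overlapping ranges (log2 fold change 0.93 ± 0.44 SE, edgeR adjusted p = 0.712). The widest gap lay in heifer 11033, whose contralateral upper horn library had 25 ITGAM counts, and without that library the log2 fold change was 0.62. In the mid horn 0% of all transcripts and 0 of the 6 genes were called by edgeR, 0 of the 6 reached an unadjusted p under 0.05, and DESeq2 called 0. A direct test of whether the side difference in the ampulla differed from that in the horn called 0% of transcripts and 0 of the 6 genes, with 0 at an unadjusted p under 0.05 and 0 by DESeq2. The 95% interval of that difference for CSF1R ran from -1.11 to 0.33 on the log2 scale.

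Further genes of myeloid cells were taken from 10 lists with 115 genes, of which 81 had a feature and 46 passed the filter. In the ampulla against the endometrium 33 of the 46 were called lower by edgeR and 6 higher, and their median log2 fold change was -1.75, while 35.6% of all transcripts tested were called lower and 29.4% higher. Some of the 46, such as GPNMB (0.0441 CPM in the ampulla, set against 10.6 CPM in the endometrium), are so low in the ampulla that it is their endometrial level that carries them over the filter, so the count is a description. It was also 33 lower and 6 higher without the 3 libraries that stand apart. All 3 tested genes of the Fc gamma receptor and C1q list were lower, namely FCGR1A (-2.60), the high-affinity IgG receptor, and C1QB (-2.45) and C1QC (-2.49), chains of the complement starter C1q that macrophages make. Of 4 tested transcription factors 3 were lower, among them IRF5 (-2.79), an interferon regulatory factor of myeloid cells, and CEBPA (-1.75), a factor of myeloid differentiation, and CEBPB was not called (-0.26). The 1 tested growth factor gene, CSF2, was lower (-2.84). It averaged 0.0490 CPM in the ampulla, set against 1.20 CPM in the endometrium. The 5 genes of its list with a feature summed to a median of 0.461 CPM in the endometrium libraries and 21.25 CPM in the highest.

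Of 6 tested scavenger and pattern receptors 4 were lower and 0 higher, with MSR1 at -2.26 and LYVE1 at -1.79, and SIRPA at -0.96. LYVE1 also marks lymphatic vessels. Of 7 oxidase and lysosome genes 5 were lower (6 without the 3 libraries that stand apart) and 1 higher. GPNMB, a lysosomal glycoprotein of macrophages, was lowest (-7.55), and CYBA, which codes for the p22 chain of the oxidase and is not confined to phagocytes, was higher (0.79). Of 5 class II antigen presentation genes 4 were lower, with CD74 at -1.75 and BOLA-DRA at -0.91, and of 5 dendritic cell genes 4 were lower, with FSCN1 (-5.67), which stromal and endothelial cells also express, furthest.

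The lists that held signalling, adhesion and neutrophil genes moved in both directions. Of 8 genes of ITAM and kinase signalling 5 were lower (4 without the 3 libraries) and 2 higher. FGR (-2.81) and INPP5D (-2.57) were lower, and PIK3AP1 (2.40), at 293.5 CPM in the ampulla, set against 56.9 CPM in the endometrium, and HCST (1.38) were higher. Of 4 integrins and chemokine receptors 3 were lower, among them ITGAL (-2.53), and ITGA4 (1.62) was higher. Of 3 neutrophil genes PGLYRP1 (3.69) and MMP9 (2.39) were higher and the neutrophil attractant CXCL8 (-3.54) was lower. PGLYRP1 codes for a peptidoglycan-binding protein of neutrophil granules. MMP9 averaged 3.71 CPM in the ampulla, set against 3.44 CPM in the endometrium libraries, which ranged from 0 to 33.1 CPM.

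**Figure D4:**
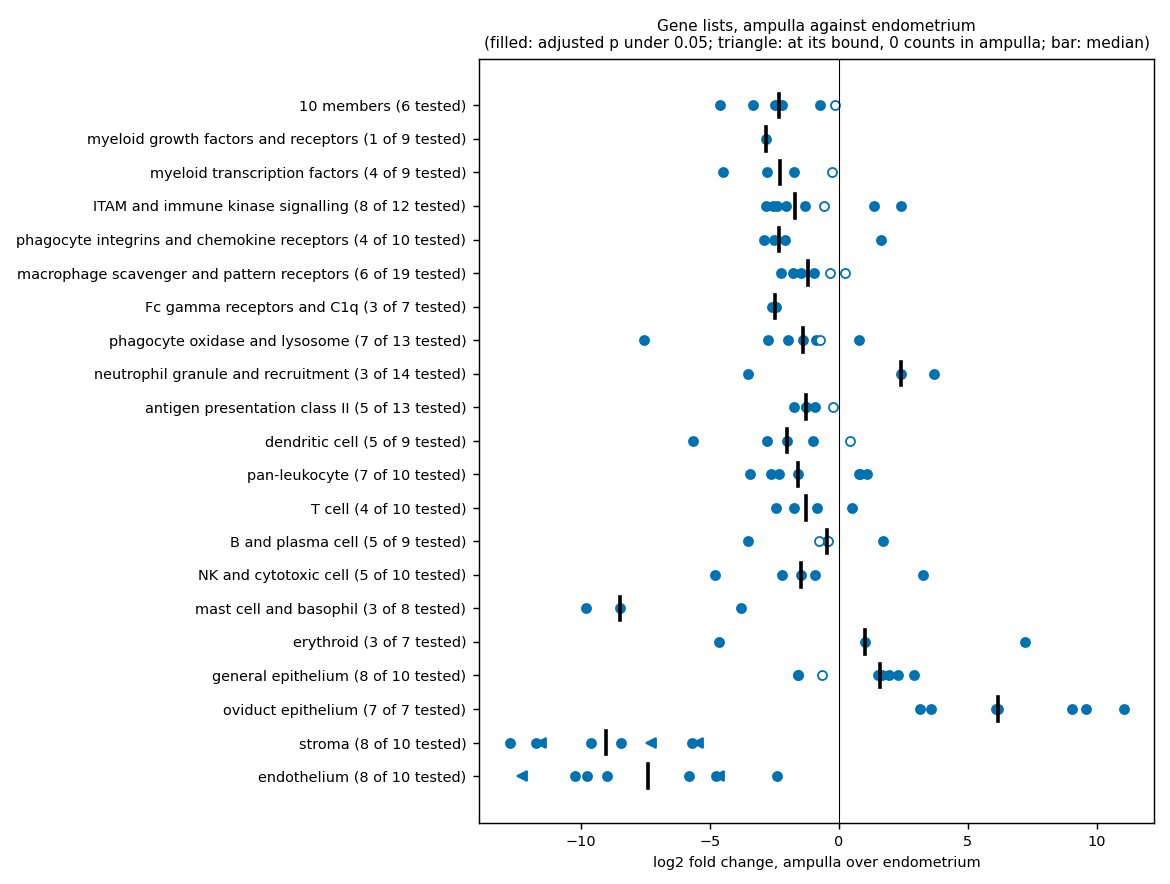
Log2 fold change of each tested gene in the ampulla against the endometrium, by list; filled points passed the edgeR test, triangles are bounds for genes with no count in the ampulla, and bars are list medians. Myeloid lists lie mostly below 0, stroma and endothelium far below, and oviduct epithelium above.

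Other cell types differed between the same tissues, and their part in the values of the 10 genes was not tested. All 8 tested stromal genes were lower in the ampulla: the 9 with a feature summed to 42.1 to 116.6 CPM in the ampulla libraries and 36680 to 84780 CPM in the endometrium libraries, and DCN, LUM and PDGFRA were at 0 in the ampulla. PDGFRB, with 0 counts in the ampulla and 46 in the endometrium, was not tested. All 8 tested endothelial genes were lower, with sums of 3.73 to 11.3 CPM in the ampulla, set against 483.6 to 1089 CPM in the endometrium, and CLDN5 and VWF at 0 in the ampulla. PECAM1 and CDH5 had 0 counts in the ampulla and 2 and 12 in the endometrium and were not tested. The 3 tested mast cell genes, HDC, TPSB2 and GATA2, were lower. Over all transcripts tested 35.6% were called lower. Genes at or near 0 in the ampulla, among them DCN, LUM, PDGFRA, CLDN5, VWF, TPSB2 and HDC, pass the filter through their endometrial level. They could hardly be called higher, so these counts are descriptions. All 7 oviduct epithelium genes were higher, and of 8 general epithelial genes 5 were higher and 2 lower (3 without the 3 libraries), with sums of 5548 to 7403 CPM in the ampulla, set against 934 to 4021 CPM in the endometrium. The 10 macrophage and myeloid genes themselves summed to 28.8 to 61.2 CPM in the ampulla, set against 106.8 to 365.5 CPM in the endometrium.

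Lymphoid and general leukocyte genes were less uniform. Over all transcripts tested 35.6% were called lower and 29.4% higher. Of 7 pan-leukocyte genes 4 were lower, with ARHGDIB (-3.45) and CD48 (-2.64) furthest, and 3 were higher, RAC2 (1.10), CYTIP (0.80) and LCP1 (0.78). Of 4 T cell genes CD5 (-2.43), CD8A (-1.73) and CD3D (-0.85) were lower and CD3G (0.49) was higher. Of 5 natural killer and cytotoxic genes 4 were lower and GZMA (3.25) was higher, and of 5 B and plasma cell genes MS4A1 (-3.54) was lower and MZB1 (1.71) higher, with 2 lower without the 3 libraries. Of 3 erythroid genes HBB (-4.64) was lower and 2 were higher. ARHGDIB, MS4A1 and HBB averaged 0.149, 0.136 and 0.0200 CPM in the ampulla, set against 1.28, 2.07 and 0.758 CPM in the endometrium. Genes so low in the ampulla pass the filter through their endometrial level and could hardly be called higher. The counts of these lists are therefore descriptions.

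In the mid horn against the body, 3 of the 46 further myeloid genes were called higher by edgeR and 0 lower. Of all transcripts tested 0.528% were called higher there and 3.92% lower. In each of the other 6 comparisons 0 of the 46 were called. MMP9, a gelatinase of neutrophils and macrophages, had a log2 fold change of 3.31 ± 0.80 (SE; edgeR adjusted p = 0.0408). It stood at 24.6 and 33.1 CPM in the ipsilateral and contralateral mid horn of heifer 11110 and at 12.4 CPM in the contralateral mid horn of heifer 11033, and at or below 2.82 CPM in the other 7 mid horn libraries. In the body it stood at 0.349, 0.0635, 0, 0.270 and 1.61 CPM in heifers 10872, 10882, 11033, 11070 and 11110. The class II genes BOLA-DRA (0.67 ± 0.19 SE, edgeR adjusted p = 0.0470) and BOLA-DRB3 (0.64 ± 0.18 SE, edgeR adjusted p = 0.0461) were the other 2. The leukocyte gene LCP1 (0.72) and the epithelial genes KRT8 (0.93), KRT18 (0.88), CLDN4 (1.09) and KRT5 (4.12) were higher in the same comparison, and their part was not tested. KRT5 stood at 2.67 without the 3 libraries that stand apart, which include the mid horn library with 453 CPM of it. Without the 3 libraries that stand apart, 5 further myeloid genes were called higher, the same 3 with BOLA-DMB (0.66) and CD1E, an antigen-presenting molecule. More transcripts in all were called in that setting. Other alternatives went the opposite way. Under the setting with the fewest calls, which leaves out a heifer, no transcript was called in this comparison, these genes included. Without the replicate block nearly all calls of this comparison were lost.

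How the log2 CPM of these genes varied together over the 24 endometrium libraries is given as Pearson r without a test since the libraries share 5 heifers and their depth. ITGAM and CSF1R had an r of 0.65, CSF1R and CD14 one of 0.61, CD14 and LYZ 0.57, ITGAM and LYZ 0.56, CSF1R and LYZ 0.45 and ITGAM and CD14 0.32. Over the 10 ampulla libraries, where ITGAM had few counts, the r was -0.18 for ITGAM and CSF1R, 0.56 for CSF1R and CD14, 0.02 for CD14 and LYZ, -0.01 for ITGAM and LYZ, -0.26 for CSF1R and LYZ and -0.49 for ITGAM and CD14. In the endometrium AIF1 and FCER1G had an r of 0.51 with each other, and AIF1 had negative values with the rest, down to -0.71 with LYZ. FCER1G had values between -0.17 with CSF1R and -0.47 with ITGAM and LYZ.

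The 3 genes most like each of them in the endometrium, by the same r over 24 libraries and among all tested transcripts, included myeloid genes for some members. For ITGAM they were CYBB (0.89), the catalytic chain of the phagocyte oxidase, TNFSF8 (0.87) and CD300E (0.87). For CSF1R they were F13A1 (0.86), a coagulation factor chain, MPEG1 (0.84), a pore-forming protein of macrophages, and CFP (0.77), which codes for properdin. CD14 was most like ATP6V0D1, GNAI2 and IFNGR2 (0.91 each), and LYZ was most like RIOX1 (0.84), C3AR1 (0.82), the receptor of complement fragment C3a, and FASTKD5 (0.82). AIF1 was most like IMPA1 (0.86), MAPK14 (0.80) and FAM107A (0.79), and FCER1G most like TRIM7 (0.89), TRADD (0.87) and COPZ2 (0.87). The partners of AIF1 averaged only 0.82, 0.24 and 0.55 CPM in the endometrium, and those of FCER1G 5.16, 1.12 and 2.03 CPM. With the number of features with a count, r was -0.60 for CD14, 0.43 for AIF1 and 0.08 for FCER1G. It was -0.30 for LYZ, 0.29 for ITGAM and -0.15 for CSF1R. The part of low counts and library quality in these likenesses was not tested.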

How the data were processed

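RNA was measured in 34 libraries from 7 sites of 5 heifers. The authors deposited 1 table of raw read counts per transcript feature, not normalised. The submitters' processing notes list cutadapt, SAMtools, HTSeq and STAR 2.7.9a without their roles; a kit that keeps strand was used, per the labels' protocols. Build, strand setting and counting mode were not given in the sources used here. Names were read from RefSeq (assembly ARS-UCD2.0), whose gene table matched 26338 features with 95.3% of counts and served for names and neighbours only; no sequences were used.

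CPM were computed from the deposited counts with TMM factors, except those pooled over libraries, which used library totals without them. Tests used edgeR 4.0.16 in R 4.3.3 (filterByExpr, robust quasi-likelihood F test); the model held group and heifer and all 34 libraries; p-values were Benjamini-Hochberg adjusted over all transcripts of a contrast and called at an adjusted p under 0.05. SEs belong to edgeR's log2 fold changes. The endometrium was the mean of upper horn, mid horn and body with equal weight. The fit was tested on simulated counts with few changed transcripts, a fixed spread and no heifer effect. That setting is simpler than these data, so the simulation is a check of the code and no support for the calls.

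The heifer block follows the labels, which take all sites from the same animals; deviations from group means had a median correlation of 0.207 over 99 same-heifer library pairs and -0.0539 over 396 other pairs. No pair of libraries of a group agreed within sampling noise.

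The genes and lists were chosen with earlier results of these data known. All 10 genes were named. Of the further lists, named genes were the 2 lowest and 2 highest called in the ampulla, genes called elsewhere, and a few others chosen after their values were seen. Some genes that this rule would name are not reported here. The alternatives were DESeq2 1.42.0, its size factors, no filter, no replicate block, leaving out each heifer, summing the features of a gene and, added after seeing the data, leaving out 3 libraries or 1.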

Additional observations from a re-analysis of the deposited data

Results flagged for a closer look

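In 42 groups of 4 or 5 libraries, the highest or lowest library of each tested gene was set against the others by Dixon's criterion, and 3 libraries stood outside it, where chance gives about 1 in 20 groups. CD14 stood at 70.7 CPM in the ipsilateral mid horn of heifer 11033, with the next library at 56.6 CPM. LYZ stood at 20.8 CPM in the ipsilateral ampulla of heifer 11110, with the next at 10.3 CPM. FCER1G stood at 0 CPM in the contralateral ampulla of heifer 10872, with the next at 0.190 CPM, which is a difference of 3 counts.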

How the results depend on the processing

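In the ampulla against the endometrium ITGAM, CSF1R, CD14, LYZ and FCER1G were called lower under all 12 alternatives, with log2 fold changes from -4.83 to -4.42, -2.67 to -2.31, -3.59 to -3.09, -0.96 to -0.66 and -2.60 to -1.97. Without the filter 6 genes were called there, CD163 being added (edgeR adjusted p = 0.0218), since more genes are then tested. AIF1 lay between -0.75 and 0.11 when a heifer was left out and at 0.06 without the 3 libraries that stand apart. In the mid horn against the body AIF1 passed the threshold, so that 1 gene was called, under DESeq2, with DESeq2 size factors, without the filter, without heifer 11110, without the 3 libraries and without the contralateral upper horn library of heifer 11033. The transcripts called there numbered 2714 with DESeq2, 1276 with its size factors, 2057 without the filter, 1228 without the 3 libraries, 1419 without that 1 library and 0 to 1830 when a heifer was left out, against 767, with 0 to 1 of the 6 genes. Without the replicate block, which pairs the sites of a heifer, the transcripts called were 10655 for the ampulla against the endometrium, 1 for the mid horn against the body, 1 for the upper against the mid horn, 1 between the sides of the ampulla and 0 between those of the upper horn; it changed no call of the 10 genes, and FCER1G between the sides of the ampulla stood at -0.10. The causes were not tested.

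In the comparisons with few calls DESeq2 called 12 transcripts for the upper horn against the body, 23 for the upper against the mid horn, 17, 22 and 21 between the sides of the ampulla, upper horn and mid horn, and 7 for the difference in side; without the filter these were 150, 207, 150, 173, 140 and 116. Leaving out a heifer gave 2 to 4, 0 to 2, 0 to 4 and 0 to 8 for the first 4 of these comparisons, and between the sides of the upper horn 0 without the 3 libraries and 0 without the 1. Signs of values that were not called turned as follows. With a heifer left out, the upper horn against the body gave ITGAM -0.56 to 0.10, CSF1R -0.08 to 0.40, CD14 -0.22 to 0.53 and LYZ -0.14 to 0.46, and the upper against the mid horn gave CD14 -0.32 to 0.10. Between sides it gave AIF1 -0.61 to 0.46 and FCER1G -0.77 to 0.56 in the ampulla, CD14 -0.15 to 0.32, LYZ -0.13 to 0.20 and FCER1G -0.86 to 0.16 in the upper horn, and LYZ -0.45 to 0.03 and FCER1G -0.05 to 1.01 in the mid horn. For the difference in side it gave ITGAM -0.59 to 0.14 and FCER1G -0.75 to 0.78. Without the 3 libraries CD14 stood at -0.04 in the upper horn against the body, 0.55 between the sides of the upper horn and -0.03 between those of the mid horn, and LYZ at -0.09 between the sides of the upper horn. Without the 1 library CD14 stood at 0.49 and LYZ at -0.10 there, and FCER1G at -0.05 for the difference in side; without the filter CD14 stood at 0.05 between the sides of the upper horn. CD68, TYROBP, MARCO and CD163 had 31 counts or fewer over all libraries, which limits what can be said of them.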
